A study of Mus musculus with 18 samples.

Results

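The xenobiotic enzyme genes of the main olfactory epithelium (MOE) were followed through 18 RNA-seq libraries of sorted cells. Members were the gene symbols that begin with Cyp1, Cyp2, Cyp3 or Cyp4 and a letter, Ugt1a, Ugt2, Gsta, Gstm, Gstp, Gstt, Sult1, or Fmo and a digit. By this rule 130 of the 23359 symbols in the expression table were members: 82 cytochrome P450 genes (Cyp), 18 UDP-glucuronosyltransferase genes (Ugt), 17 glutathione S-transferase genes (Gst), 6 cytosolic sulfotransferase genes (Sult1) and 7 flavin-containing monooxygenase genes (Fmo). The mice carried Taar5-ires-Cre or Taar6-ires-Cre, knock-in alleles in which Cre is made from the transcript of a trace amine-associated receptor (TAAR) gene, and a reporter that Cre switches on, which was L10-GFP for Taar5 and ZsGreen for Taar6. Cells were dissociated with papain and separated by fluorescence-activated cell sorting. The groups were 7 GFP-positive (Taar5+) and 9 GFP-negative (control) libraries of the Taar5 line, from mice of postnatal day 11 to 14, and 1 ZsGreen-positive (Taar6+) and 1 ZsGreen-negative library of the Taar6 line, from postnatal day 16 to 17. The strain is C57BL/6 per the labels, while the paper's reporting summary gives a mixed C57BL/6J and 129 background and older ages. All the mice carried a Cre allele and a reporter, so within a line the controls differ from the positive cells by the sort and not by these alleles. Animal, exact age and preparation may differ as well. The controls are a mixture of whatever cells lacked the reporter, mainly olfactory sensory neurons (OSNs) that express an odorant receptor by the study's estimate. The labels do not say whether libraries came from separate mice, so tests measure the spread between these libraries, which may be technical.

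The olfactory mucosa faces inhaled chemicals and is known for enzyme levels that rival those of the liver. In phase I, P450 enzymes and flavin monooxygenases, the former fed with electrons by the reductase Por, add oxygen to a foreign molecule. In phase II, transferases join it to glucuronic acid, glutathione or sulfate so that it dissolves and can be exported. In this tissue most of these enzymes are known from sustentacular cells, the glia-like supporting cells around the neurons, and from Bowman glands, which secrete the mucus. The enzymes clear odorants as well as toxicants.

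Every library held a strong neuronal signal. The summed level of 6 mature OSN markers (Omp, Cnga2, Cngb1, Adcy3, Gnal and Ric8b) was 5428 to 26359 TPM in the Taar5 line. TPM, transcripts per 1000000, are length-corrected shares of a library, so levels of different genes can be set side by side. Supporting cells were present to an unequal extent: 11 sustentacular markers outside the rule (Cbr2, Sec14l3, Ermn, Krt8, Krt18, Gpx6, Lypd2, Muc2, Sox2, Hes1 and Notch2) summed to 181 to 2857 TPM in 14 libraries, 6090 TPM in control replicate 2 and 10558 TPM in Taar5+ replicate 5. In control replicate 2 this exceeded the mature OSN sum, which was 5428 TPM there. The lists hold different genes, so their sums do not rank cell types. Control replicate 2 and Taar5+ replicate 5 stand apart, and values are given with and without them. The sustentacular sum rests on few of the 11 markers. Its largest parts were Krt18 (2947 TPM) and Krt8 (1145 TPM) in control replicate 2, where Cbr2 had 893 TPM and Muc2 and Sox2 were 0. In Taar5+ replicate 5 (5897 TPM) and in each of the other 14 libraries (104 to 1863 TPM) the largest part was Cbr2. Control replicate 2 also had the fewest rows above 0, 5939, and Taar5+ replicate 5 the most, 17808. In such bulk samples fewer cells of a type and less RNA per cell cannot be told apart. The depth behind each value is unknown, because TPM do not carry it. An exact 0 may stem from a failed estimate, so such genes are called listed at 0.

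Of the 130 members, 42 were listed at 0 in all 18 libraries. These were 36 Cyp genes, 5 Ugt genes and 1 Gst gene. Another 32 members had a mean of at least 10 TPM over the 16 libraries of the Taar5 line and 9 had at least 100 TPM. A total of 43 members reached 1 TPM in 7 or more of the 16 libraries and could be tested: 19 Cyp, 3 Ugt, 13 Gst, 4 Sult1 and 4 Fmo genes. The highest means belonged to Cyp2g1 (890 TPM), Sult1d1 (715 TPM), Cyp2a5 (554 TPM), Cyp2f2 (503 TPM), Ugt2a1 (461 TPM), Gstm1 (335 TPM), Sult1c1 (316 TPM), Gstm5 (306 TPM) and Cyp1a2 (212 TPM). All but Sult1d1, Gstm1 and Gstm5 varied across libraries by more than 95% of the genes tested, as described below. These means lean on control replicate 2 and Taar5+ replicate 5. In the other 14 libraries the median was 794 TPM for Sult1d1, 181 TPM for Gstm1, 156 TPM for Gstm5, 143 TPM for Cyp2g1, 120 TPM for Ugt2a1, 114 TPM for Cyp2f2, 75.9 TPM for Cyp2a5, 63.2 TPM for Sult1c1 and 27.7 TPM for Cyp1a2, so Sult1d1 then came first. Of all 86 members above 0 in the Taar5 line, 27.9% were highest in control replicate 2 and 31.4% in Taar5+ replicate 5, against 8.64% and 11.9% of all 19192 genes above 0.

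**Figure D1:**
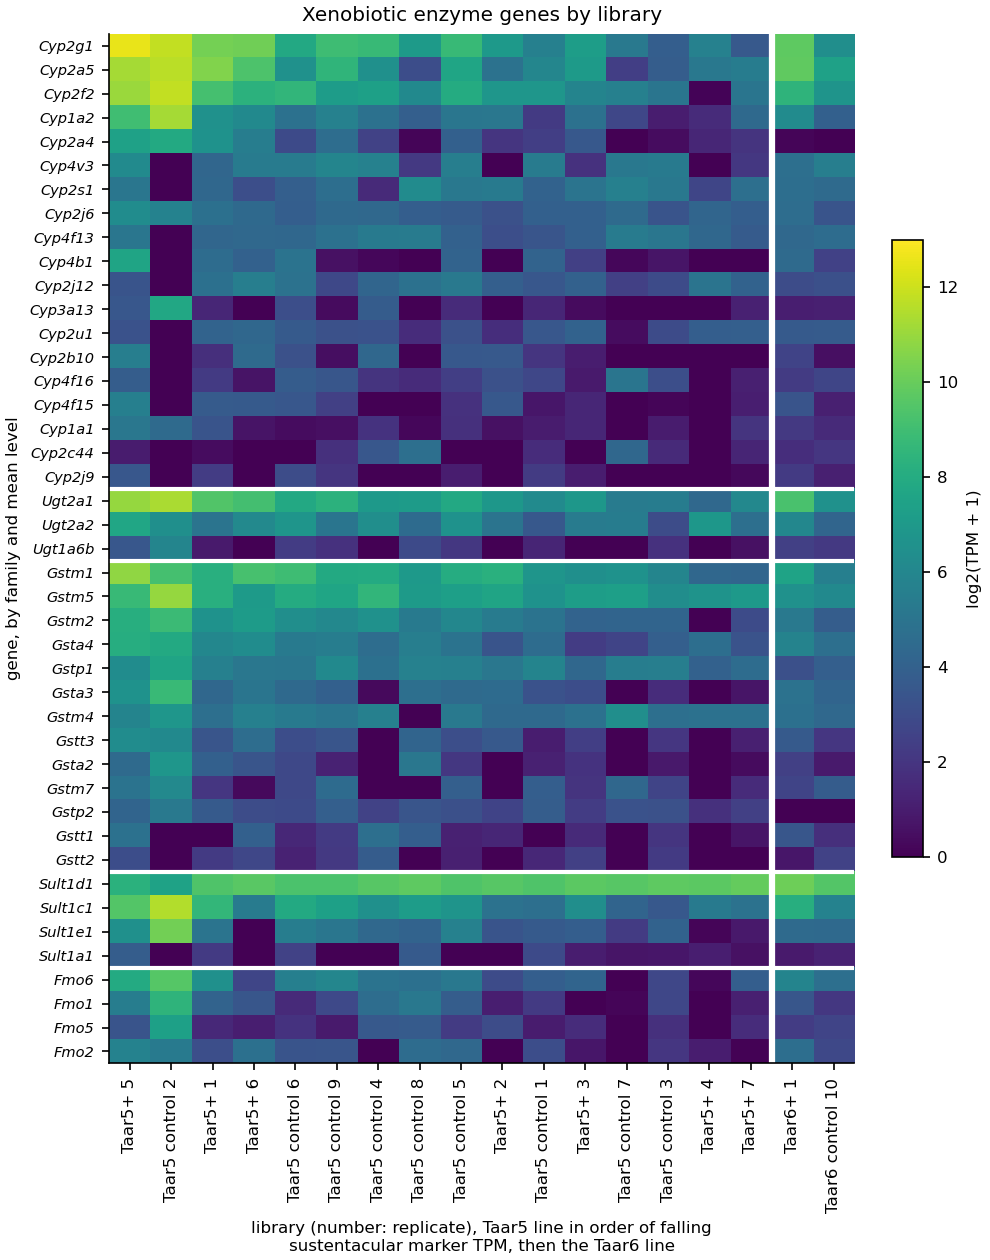
Level of the 43 tested members, as log2(TPM + 1) by colour, with genes in rows by family and mean level and libraries in columns. The 16 libraries of the Taar5 line run from the highest to the lowest sum of sustentacular markers, and the Taar6 line follows after the white bar. The colours of Cyp2g1, Cyp2a5, Cyp2f2 and Ugt2a1 fade from left to right, while Sult1d1 is darkest in the first and second columns.

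Among the P450 genes, Cyp2g1 had the highest mean. It is a P450 known for its restriction to the olfactory mucosa and lies on chromosome 7 from 26808892 to 26821205 on the plus strand (GENCODE M21, GRCm38). Its level ran from 11.3 TPM through a median of 152 TPM to 6113 TPM in the 7 Taar5+ libraries and from 13.9 TPM through 226 TPM to 3547 TPM in the 9 controls. The groups overlapped over nearly the whole range, with the highest value of each group in Taar5+ replicate 5 and control replicate 2. Ranked among all genes, Cyp2g1 was at rank 8 in Taar5+ replicate 5 and rank 24 in control replicate 2, and between ranks 84 and 7501 in the other 14.

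Other high Cyp2 genes of this stretch, Cyp2a5 and Cyp2f2, varied in the same direction. Members closer by were near 0: Cyp2b19 before Cyp2g1, and Cyp2a22 and Cyp2a12 between Cyp2a5 and Cyp2f2. Their means over the 16 libraries of the Taar5 line were 0.0283, 0.0132 and 0.0272 TPM. Cyp2a5, the coumarin hydroxylase, starts 14.1 kb beyond Cyp2g1 (26835305 to 26843548, plus strand), and its levels were 28.9, 136 and 2434 TPM (lowest, median and highest) in Taar5+ libraries and 4.35, 90.8 and 3213 TPM in controls. Cyp2f2, known for bioactivating naphthalene, lies further along (27119909 to 27133660, plus strand), with 0.0815, 114 and 2144 TPM in Taar5+ libraries and 32.3, 147 and 3597 TPM in controls. For both genes the highest value of each group came again from the same libraries, and the groups overlapped. Cyp1a2, a classical target of the aryl hydrocarbon receptor, lies on chromosome 9 (57676937 to 57683703, minus strand). It was less even: 2464 TPM in control replicate 2, 519 TPM in Taar5+ replicate 5 and 1.07 to 94.1 TPM in the others. Its neighbour Cyp1a1 reached at most 34.0 TPM.

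The remaining P450 genes on the list were low, and 3 patterns were seen among them. Cyp2j6, from a subfamily that makes epoxides of arachidonic acid, was more even, with 8.39 to 27.2 TPM in the other 14 libraries. It too was highest in Taar5+ replicate 5 (79.8 TPM) and control replicate 2 (53.7 TPM). Cyp4b1, Cyp4f15, Cyp2b10 and Cyp4v3, which include fatty acid hydroxylases, were listed at 0 in control replicate 2 but had 192, 48.3, 46.0 and 73.0 TPM in Taar5+ replicate 5. In the other 14 libraries Cyp4v3 had a median of 37.5 TPM, with at most 59.2 TPM. Cyp4b1, Cyp4f15 and Cyp2b10 had medians of 0.591, 1.41 and 1.72 TPM there. Cyp3a13 was instead highest in control replicate 2, with 220 TPM against 10.6 TPM in Taar5+ replicate 5 and at most 12.8 TPM elsewhere. Cyp2s1, listed at 0 in control replicate 2, had 1.97 to 75.0 TPM in the other 14 libraries and 33.9 TPM in Taar5+ replicate 5. Cyp2e1, the ethanol-oxidising P450, was at most 28.5 TPM and above 0 in 8 of 16 libraries. Cyp4a12b was above 0 in 7 of 16 libraries and Cyp2b19 reached no more than 0.261 TPM.

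Ugt2a1, the glucuronosyltransferase of the olfactory mucosa, was the highest Ugt gene by its mean. It had 20.4, 116 and 1938 TPM (lowest, median and highest) in Taar5+ libraries and 41.8, 138 and 2651 TPM in controls. Apart from control replicate 2 no control exceeded 331 TPM. Ugt2a2 overlaps Ugt2a1 at the same locus and ran from 7.20 to 202 TPM. Its ratio to Ugt2a1 ran from 0.0332 to 5.80 and was above 1 in 2 libraries. Of the 50-base words in Ugt2a1 transcripts 97.0% also occur in another gene, mostly Ugt2a2, so how the reads were divided between the pair is uncertain. Ugt1a6a, a phenol glucuronosyltransferase whose exons are largely shared with the other Ugt1a genes, reached 25.9 TPM in control replicate 2. Ugt2b34 was listed at 0 throughout.

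The sulfotransferases held the clearest contrast among members. Sult1d1, which sulfonates catecholamines, was the highest member in 12 of the 16 libraries of the Taar5 line and in both of the Taar6 line. Its levels were 311, 813 and 987 TPM (lowest, median and highest) in Taar5+ libraries and 180, 695 and 872 TPM in controls. In 14 libraries it lay within 634 to 987 TPM, between ranks 120 and 203 of all genes, whereas Taar5+ replicate 5 and control replicate 2 had its lowest values. Its share of the summed level of all members was 10.5% to 63.3% in the 14 libraries, 1.64% in Taar5+ replicate 5 and 0.688% in control replicate 2.

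Sult1c1 and Sult1e1 were highest where Sult1d1 was lowest. Sult1c1 (chromosome 17, 53961615 to 53990674, minus strand) had 28.4, 41.9 and 725 TPM in Taar5+ libraries and 11.1, 106 and 2913 TPM in controls. Sult1e1, the estrogen sulfotransferase, had 0, 9.36 and 91.3 TPM in Taar5+ libraries and 3.85, 19.8 and 1208 TPM in controls. The highest value of each group was in Taar5+ replicate 5 and control replicate 2 for both genes, and the groups overlapped. Sult1a1 and Sult1b1 were low, with at most 13.4 and 9.28 TPM, and listed at 0 in control replicate 2. Sult1c2 was above 0 in Taar5+ replicate 5 alone, at 0.126 TPM.

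Sult1d1 and Sult1e1 are direct neighbours. They lie on the minus strand of chromosome 5 with Ugt2a1 and Sult1b1, within 132 kb (87459490 to 87591594), and Sult1d1 (87554645 to 87569027) and Sult1e1 (87575969 to 87591594) are 6.94 kb apart. Sult1e1 exceeded Sult1d1 in 1 of 16 libraries, control replicate 2, where the ratio was 6.71, against a median ratio of 0.0188. In control replicate 2 and Taar5+ replicate 5, Sult1e1 was at its highest and Sult1d1 at its lowest.

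**Figure D2:**
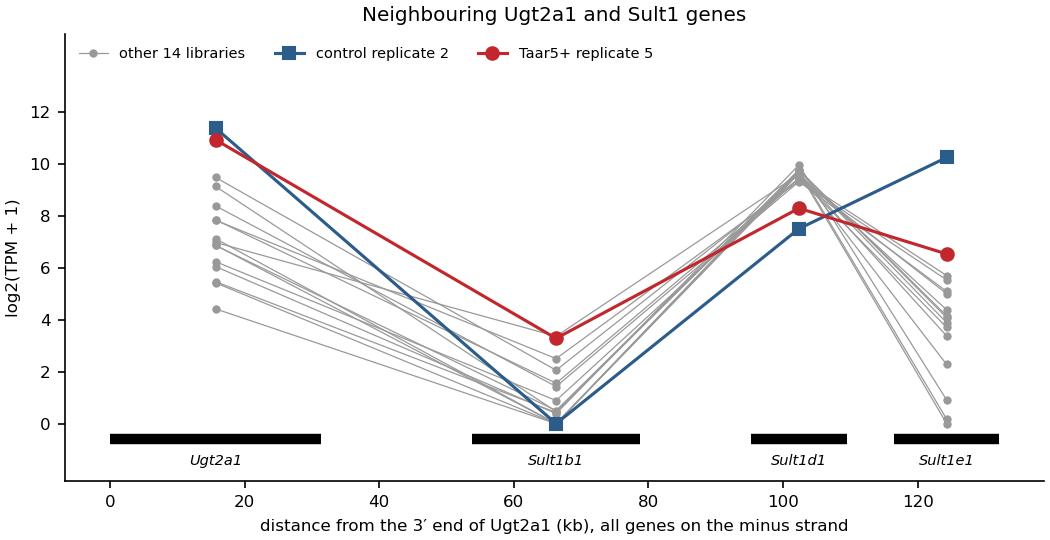
Levels of Ugt2a1, Sult1b1, Sult1d1 and Sult1e1, as log2(TPM + 1), against distance along the locus in kb, with each line 1 library and black bars the genes. The lines of control replicate 2 and Taar5+ replicate 5 lie above the other 14 at Ugt2a1 and Sult1e1 and below them at Sult1d1.

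The stretches before the transcription starts of these genes are shown because the members rose and fell with each other or, at Sult1d1, did not. Each is 150 bases long, reads 5′ to 3′ in the direction of the gene, and ends next to the RefSeq or the GENCODE start, whichever is further upstream (sequences from RefSeq, GRCm38.p6). They cover chr5:87569028-87569177 for Sult1d1, chr5:87591612-87591761 for Sult1e1, chr5:87490872-87491021 for Ugt2a1, chr7:26835155-26835304 for Cyp2a5, chr7:27119759-27119908 for Cyp2f2 and chr9:57683704-57683853 for Cyp1a2. Capitals mark a match to a searched motif.
Sult1d1: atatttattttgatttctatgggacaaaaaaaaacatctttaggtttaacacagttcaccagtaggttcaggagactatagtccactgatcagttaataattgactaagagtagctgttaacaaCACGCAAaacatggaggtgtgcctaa
Sult1e1: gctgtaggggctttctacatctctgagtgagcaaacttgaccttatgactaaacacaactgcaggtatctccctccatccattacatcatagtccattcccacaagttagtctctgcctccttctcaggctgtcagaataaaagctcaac
Ugt2a1: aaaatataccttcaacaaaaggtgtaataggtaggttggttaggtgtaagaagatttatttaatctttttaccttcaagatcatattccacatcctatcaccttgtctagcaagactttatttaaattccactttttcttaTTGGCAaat
Cyp2a5: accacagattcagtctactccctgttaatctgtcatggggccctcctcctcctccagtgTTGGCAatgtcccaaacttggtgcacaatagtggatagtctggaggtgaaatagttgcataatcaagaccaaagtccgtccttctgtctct
Cyp2f2: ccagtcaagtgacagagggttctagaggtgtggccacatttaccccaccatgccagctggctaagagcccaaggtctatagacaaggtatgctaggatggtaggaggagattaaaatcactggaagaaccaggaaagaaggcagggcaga
Cyp1a2: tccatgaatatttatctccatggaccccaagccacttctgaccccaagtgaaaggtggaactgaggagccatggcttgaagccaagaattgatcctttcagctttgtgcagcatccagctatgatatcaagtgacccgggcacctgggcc

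Cyp2g1 has no entry in the promoter table. The motifs were TNGCGTG (the core bound by the aryl hydrocarbon receptor with ARNT), TGACNNNGC (the antioxidant response core), TCCC and GGGA with any 2 bases between them (EBF factors) and TTGGCA (the core letters of nuclear factor I sites) on both strands, and TATAAA on the strand of the gene, with overlapping matches counted. They were searched from 250 bases before to 50 after the RefSeq start in 36 tested members with an entry. The receptor core was found in 2 of the 36, Gsta2 and Sult1d1 (5.56%, against 5.12% of all 27025 promoters), and in Sult1d1 it is the CACGCAA on the other strand. TTGGCA was found in 7, including Cyp2a5 and Ugt2a1 (19.4% against 14.4%), the antioxidant core in 3 (8.33% against 12.5%), TATAAA in 8 (22.2% against 8.88%) and the EBF motif in 0 (against 0.914%). Cyp1a2 had no match to the receptor core in this window. A match is a string of letters and not a site.

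Glutathione S-transferases were the family present most widely, with 13 of 17 members tested. Gstm1, of the mu class, had 17.7, 296 and 1846 TPM (lowest, median and highest) in Taar5+ libraries and 58.7, 238 and 567 TPM in controls. Its value in control replicate 2 was near the 586 TPM of Taar5+ replicate 6 and below that of Taar5+ replicate 5. Gstm5, at one end of the same cluster on chromosome 3 (107895821 to 107898686, plus strand), had 102, 151 and 429 TPM in Taar5+ libraries and 82.2, 162 and 1993 TPM in controls. Here it was control replicate 2 that lay far above. Gstm2 reached 460 TPM and Gsta4, which clears products of lipid peroxidation, 269 TPM. Gstp1, the pi class enzyme, was among the more even members, from 15.2 to 191 TPM. Its near copy Gstp2 stayed at 0.151 to 0.237 of it in all 16 libraries, and 33.7% of the 50-base words in Gstp1 occur in another gene.

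Flavin monooxygenases were the family with the lowest sum. Fmo6 led, with 749 TPM in control replicate 2, 249 TPM in Taar5+ replicate 5 and at most 91.8 TPM in the others. Fmo1 had 353 and 43.8 TPM in those libraries and at most 35.8 TPM elsewhere. Fmo2 had 38.8 and 54.1 TPM in them.

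The libraries that stand apart were not alike. The summed level of all members was 26167 TPM in control replicate 2, which is 2.62% of that library, and 18945 TPM in Taar5+ replicate 5, which is 1.89%, against 1401 to 6566 TPM in the other 14. Relative to Taar5+ replicate 5, control replicate 2 had 13.2-fold the level of Sult1e1, 8.06-fold of Fmo1, 4.75-fold of Cyp1a2, 4.64-fold of Gstm5 and 4.02-fold of Sult1c1, but 0.580-fold of Cyp2g1 and 0.307-fold of Gstm1. By family, the Cyp sums were close (13357 and 12026 TPM), as were those of Ugt (2887 and 2159 TPM) and Gst (4307 and 3250 TPM), while those of Sult1 (4301 and 1150 TPM) and Fmo (1315 and 360 TPM) differed more. Cell type markers differed too. Control replicate 2 had more Krt18 (2947 against 1026 TPM), Krt8 (1145 against 513 TPM), Sox9 (71.4 against 17.1 TPM), Sox10 (31.1 against 2.21 TPM) and Aqp5 (1009 against 298 TPM). It had less Cbr2 (893 against 5897 TPM) and Sec14l3 (159 against 2045 TPM), and the gland genes Bpifb9a and Bpifb9b were listed at 0 against 3155 and 5772 TPM. These are single libraries with no replicate of their kind, and the part of these cells in the difference was not tested.

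**Figure D3:**
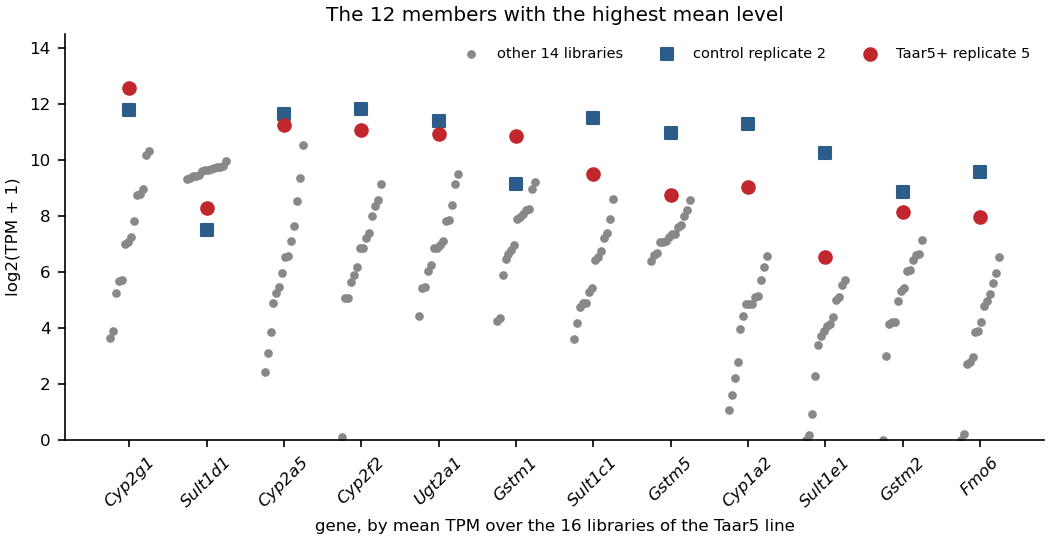
Level of the 12 members with the highest means, as log2(TPM + 1), with genes in order of mean TPM. Control replicate 2 (squares) and Taar5+ replicate 5 (large circles) lie above the range of the other 14 libraries (grey points) for 10 of the genes, below it for Sult1d1, and for Gstm1 control replicate 2 lies within it.

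Next, the members were set beside the sustentacular markers. In order of the marker sum the first 4 libraries, Taar5+ replicate 5, control replicate 2, Taar5+ replicate 1 and Taar5+ replicate 6, were also the first 4 in Cyp2g1. Bowman gland markers shared the first 3, with sums of 9259, 1180 and 258 TPM. Over the 14 libraries without control replicate 2 and Taar5+ replicate 5, Spearman's rho with the sustentacular sum was positive for 39 of the 43 tested members (90.7%, median 0.499), against 53.1% of all 12502 genes (median 0.0198). With the Bowman gland sum it was positive for 37 (86.0%, median 0.372, against 66.3% and 0.117), and with the mature OSN sum for 20 (46.5%, against 42.5%). The highest values with the sustentacular sum were those of Gstm2 (0.947), Cyp2f2 (0.939) and Ugt2a1 (0.925), and the lowest was that of Sult1d1. These libraries and the TPM total are shared by all genes, so the counts are descriptions. Cyp2g1 and Sult1d1 are given further because of their patterns, and the p-values below do not allow for that choice. For them 8 relations were computed, and p-values are from 100000 permutations with Benjamini-Hochberg adjustment over the 8. Across the 16 libraries, log2(TPM + 1) of Cyp2g1 rose with that of the marker sum (Pearson r = 0.945, Spearman rho = 0.935, permutation p = 1e-05 for each, the smallest that these permutations can give, adjusted p = 4e-05 and 8e-05). Without the 2 libraries farthest from the median marker sum r was 0.910. Within the 14 libraries that exclude control replicate 2 and Taar5+ replicate 5, r was 0.903 and rho 0.903 (permutation p = 1e-05 and 2e-05, adjusted p = 4e-05 and 8e-05), and r was 0.879 without the 2 farthest. With the mature OSN markers, Cyp2g1 had r = -0.44 and rho = -0.29 (permutation p = 0.0866 and 0.266, adjusted p = 0.116 and 0.304), and r was -0.16 without the 2 farthest.

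Sult1d1 ran opposite to the supporting cell markers. Since control replicate 2 and Taar5+ replicate 5 form a separate pair at its low end, the relation was taken within the other 14 libraries. There r with the sustentacular sum was -0.65 and rho was -0.67 (permutation p = 0.0136 and 0.0116, adjusted p = 0.0217 and 0.0231), but r was -0.43 without the 2 farthest libraries, Taar5+ replicates 7 and 4, so the relation leans on them. With the mature OSN sum, r was 0.272 and rho 0.349 (permutation p = 0.348 and 0.220, adjusted p = 0.398 and 0.293), and r was 0.166 without the 2 farthest. TPM are shares of a fixed total, so a gene can fall where others rise. The part of this in the relation was not tested.

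**Figure D4:**
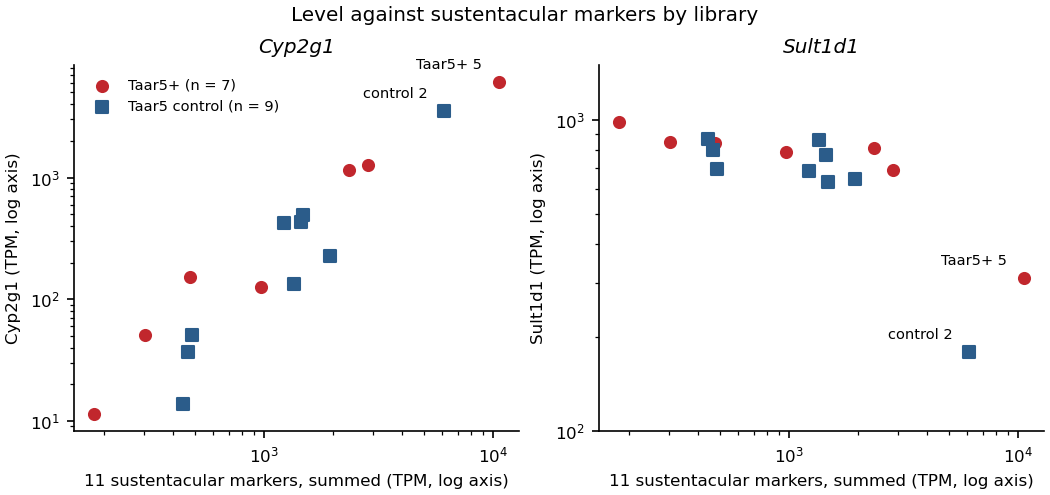
Level of Cyp2g1 (left) and Sult1d1 (right) in TPM against the summed TPM of the 11 sustentacular markers, on log axes, with each point 1 library of the Taar5 line (circles Taar5+, squares control). Cyp2g1 climbs from 11.3 to 6113 TPM along the markers, while Sult1d1 stays within 634 to 987 TPM except for control replicate 2 and Taar5+ replicate 5.

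Taar5+ cells were then compared with controls to ask whether these enzymes differed between the sorted groups. None of the 43 tested members passed an adjusted p of 0.05 in limma (0 of 43, lowest adjusted p = 0.617), where 0.168% of the 12502 genes tested passed. At an unadjusted p of 0.05 in limma there were 2 members, Cyp4f15 and Cyp2c44, against 7.05% of all genes. Of the 43, 21 had a positive and 22 a negative log2 fold change, with a median of -0.055, and the median over all genes was 0.0195. Summed over all members, the level was 1401, 2037 and 18945 TPM (lowest, median and highest) in Taar5+ libraries and 1456, 2974 and 26167 TPM in controls, so the sums overlapped too. No member separated the groups without overlap, as 18 of the 12502 genes did.

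Intervals were wide for most members, since the members were more variable than other genes. The residual SD of log2(TPM + 1) had a median of 1.82 over the 43 members and 1.26 over all genes. Cyp2a5 had an SD of 2.80, above that of 99.6% of genes, and Sult1d1 0.640, above that of only 17.8%. Accordingly, the log2 fold change of Sult1d1 was 0.18 with a 95% interval of -0.43 to 0.79, while that of Cyp2g1 was 0.54 with an interval of -1.916 to 2.997. Cyp2j6 (0.19, interval -0.78 to 1.16) and Gstp1 (-0.75, interval -1.605 to 0.107) were measured more closely.

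The largest changes were not separable from this spread. Cyp4f15 had 0, 10.9 and 48.3 TPM (lowest, median and highest) in Taar5+ libraries and 0, 0.144 and 10.6 TPM in controls (log2 fold change 1.76, SE 0.77, limma adjusted p = 0.617), and 0.66 with array weights. Cyp2a5 (1.44, SE 1.22) and Cyp2a4 (1.28, SE 1.13) followed on the positive side, which with each library left out ran from 0.85 to 2.12 and from 0.72 to 1.92, and Cyp2a4 shares 38.0% of its 50-base words with other genes, mostly Cyp2a5. On the negative side, the estrogen sulfotransferase Sult1e1 had the largest difference (log2 fold change -2.18, SE 1.06, limma adjusted p = 0.734), followed by Cyp4v3 (-1.68, SE 1.03) and Gstm7 (-1.59, SE 0.91). With each library left out these ran from -2.79 to -1.52, from -2.24 to -1.20 and from -2.15 to -1.22. Cyp2c44, chosen after its values were seen, had -1.56 (SE 0.69, limma adjusted p = 0.627). The groups overlapped for each of these genes.

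**Figure D5:**
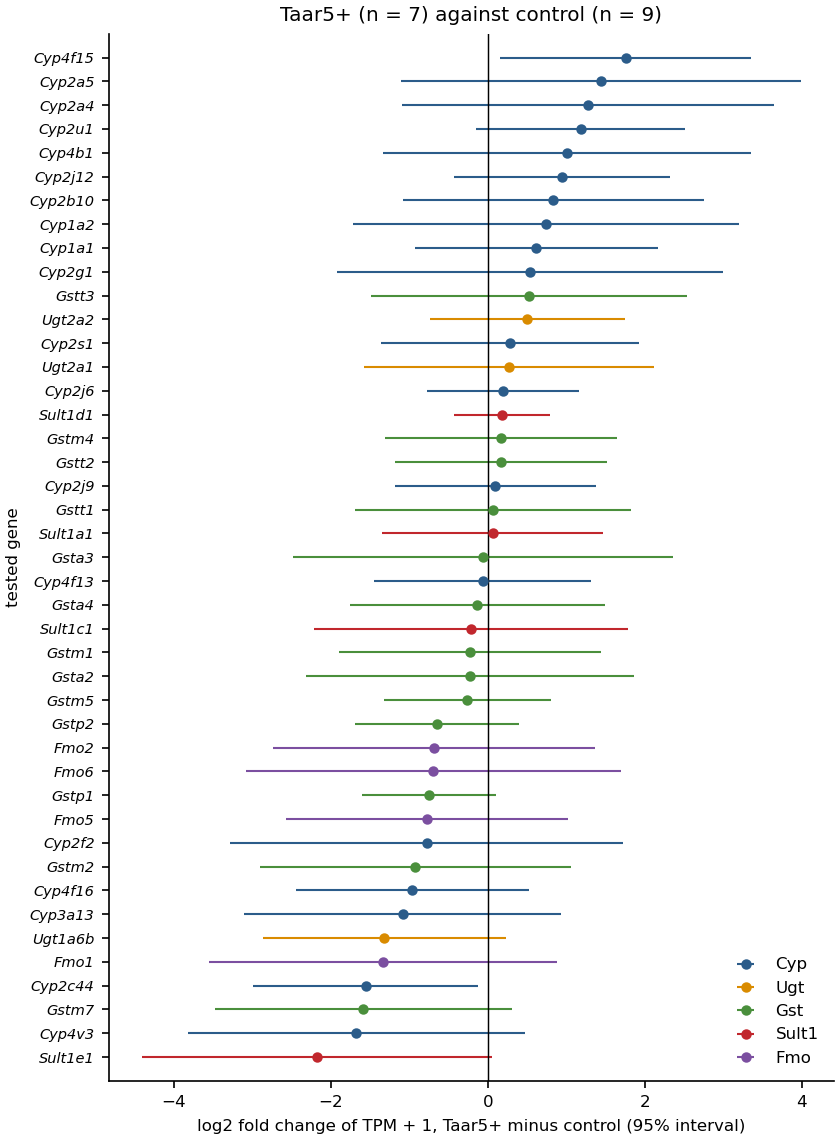
Log2 fold change of TPM + 1 for the 43 tested members, Taar5+ minus control, with 95% intervals from limma and colours by family. The interval excludes 0 for Cyp4f15 and Cyp2c44 alone, and those of Cyp2a5 and Cyp2g1 are among the widest.

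Calls depended on how the libraries were weighted. With array weights in limma, which gave control replicate 2 a weight of 0.0514, 4 members passed, all lower in Taar5+ cells: Cyp4v3 (log2 fold change -2.85), Cyp4f16 (-1.69), Ugt1a6b (-1.27) and Gstp1 (-0.94). Cyp4f16 and Ugt1a6b were chosen for naming after their values were seen. With these weights 11.3% of the 12502 genes passed, 197 higher and 1213 lower in Taar5+ cells. When control replicate 2 and Taar5+ replicate 5 were both left out, 0 of 37 members passed in limma (lowest adjusted p = 0.0772, 6 at an unadjusted p of 0.05, all with a negative fold change), where 2.83% of 11915 genes passed. At the unadjusted p those 6 stand beside 13.6% of all genes. Of all genes, 49 were higher and 288 lower there, and the marker keratins of horizontal basal cells were also lower in Taar5+ cells (Krt5 -3.91 and Krt14 -4.44 on the log2 scale, limma adjusted p = 0.00272 and 5.53e-05). Markers of other cells were lower in the same comparison, namely Trp63 (-2.97, limma adjusted p = 0.00102) of basal cells, Ascl3 (-4.25, limma adjusted p = 0.00989) of microvillar cells and Tyrobp (-4.47, limma adjusted p = 0.00317) of immune cells. With array weights these markers were called lower as well, with Ptprc of immune cells, Sox9 of Bowman glands and Hes1 of the sustentacular list. The mature OSN marker Ric8b was called higher there (log2 fold change 0.60, limma adjusted p = 0.0104). No other sustentacular or gland marker was called there, and in the main limma fit these lists were mixed. Log2 fold changes were positive for Gpx6 (2.52), Muc2 (2.18), Sec14l3 (1.20), Bpifb9a (1.86) and Bpifb9b (1.98). They were negative for Krt18 (-1.49), Krt8 (-1.06), Hes1 (-1.23) and Sox9 (-1.17), and none of these genes passed in that fit. The part of any of these cells in the members' values was not tested.

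The genes that serve these enzymes were read in the same fit. Of 42 partner genes listed, 40 were in the table, 28 could be tested and 0 passed in limma, with 2 at an unadjusted p of 0.05, Papss2 and Aldh1a1. Por, the electron donor of the P450 enzymes, had 44.2, 170 and 852 TPM (lowest, median and highest) in Taar5+ libraries and 126, 172 and 371 TPM in controls. Its highest values lay in Taar5+ replicate 5 and control replicate 2 as well, but its span was narrower than that of Cyp2g1. The epoxide hydrolase Ephx1 also peaked there, with 311 and 189 TPM. The regulators did not follow: Ahr, the aryl hydrocarbon receptor, was at most 9.57 TPM and listed at 0 in control replicate 2, and Nfe2l2, the factor of the antioxidant response, ran from 169 to 532 TPM.

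Papss2, which makes the sulfate donor for sulfotransferases, was chosen after its values were seen. It had 54.7, 144 and 196 TPM in Taar5+ libraries and 23.9, 50.7 and 97.9 TPM in controls. Of the 7 Taar5+ libraries 6 lay above every control, and the groups overlapped through the lowest one (log2 fold change 1.37, SE 0.31, limma adjusted p = 0.101). It passed when control replicate 2 was left out (limma log2 fold change 1.49, adjusted p = 0.00983) and when Taar5+ replicate 5 was left out as well (limma log2 fold change 1.39, adjusted p = 0.00708). In the latter comparison the retinaldehyde dehydrogenase Aldh1a1 passed too, lower in Taar5+ cells (log2 fold change -2.88, limma adjusted p = 0.0448). Papss2 stood at 116 TPM in the Taar6+ library and 50.2 TPM in its control.

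In the Taar6 line, with 1 library per group and so no test, most members were higher in the Taar6+ library. Of 52 members with at least 1 TPM in either library, 35 were higher in Taar6+ cells (67.3%, against 30.6% of 15189 genes). By over 1 in log2(TPM + 1), 24 were higher, which is 46.2% of the 52, against 4.89% of all those genes. The median difference was 0.63 over the members and -0.21 over all genes. Cyp2g1 stood at 867 TPM in the Taar6+ library and 84.1 TPM in its control, Cyp2a5 at 915 and 174 TPM, and Ugt2a1 at 615 and 95.9 TPM. Sult1c1 (284 and 53.4 TPM) and Gstm1 (186 and 48.1 TPM) had the same direction. Sult1d1 differed less, with 1111 and 728 TPM, and Sult1e1 was nearly equal, with 21.3 and 21.0 TPM. Gstp1 (8.09 and 14.2 TPM), Gstm7 (5.35 and 12.6 TPM) and Cyp4v3 (25.8 and 45.9 TPM) were lower in Taar6+ cells. The sustentacular markers moved along, with a sum of 2105 TPM in the Taar6+ library and 608 TPM in its control, all 11 above 0 in each. Mature OSN markers summed to 19796 and 18373 TPM. Blood and immune markers were also higher in the Taar6+ library (513 and 179 TPM), and Bowman gland markers slightly so (51.8 and 40.0 TPM). Markers of horizontal basal cells (15.6 and 67.4 TPM), microvillar cells (36.7 and 78.9 TPM) and immature OSNs (1502 and 2241 TPM) were lower. The part of any of these cells in the members' differences was not tested.

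Levels were not compared between the lines. Gapdh was 1.43 and 6.06 TPM in the Taar6 line against 436 to 1222 TPM in the Taar5 line, and Ppia was listed at 0 in both Taar6 libraries. Among the members, Gstp2 was listed at 0 in both of them and Cyp2a4 had at most 0.140 TPM, beside their near copies Gstp1 and Cyp2a5. Of 42 tested members with a transcript in the annotation, 11 shared over 10% of their 50-base words with another gene and 12 shared none, among them Sult1d1, Sult1e1, Sult1c1, Cyp2f2 and Gstm5.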

How the data were processed

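Per the labels and the paper's methods, the authors made Smart-seq2 libraries, which carry no molecular identifiers, trimmed reads with Trimmomatic 0.36, aligned them to mm10 (GRCm38) with HISAT2 2.1.0 and quantified genes with Cufflinks 2.2.1. The deposited values are TPM per gene. The conversion to TPM, the annotation, the strand setting and the handling of reads with several matches are not given in the sources used here. Groups came from the labels. Repeated symbols were summed, which joined 131 member rows into 130 symbols. The filter kept genes that reached 1 TPM in 7 or more of the 16 Taar5-line libraries. On log2(TPM + 1), lmFit and eBayes with trend of limma 3.58.1 (R 4.3.3) compared the groups, and p-values were adjusted over all genes by Benjamini-Hochberg. A fold change on this scale understates that of low genes. The Taar values of control replicate 2 equalled those of replicate 1 for all 13 Taar genes above 0 and were set to missing in the limma fits except those with quantile normalization and array weights. No member was affected. Simulated data served to test the fit.

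Members named were those called, the 12 with the highest means, the 3 largest changes in each direction and a fixed list of 30 genes known for the olfactory mucosa, with Por, Ephx1, Ahr and Nfe2l2 among the partners. The members and lists were chosen with earlier results of these data known. Positions are from GENCODE M21 on GRCm38, which held 126 of the 130 symbols. Same-numbered libraries of the groups were not treated as pairs. Shares of 50-base words were counted in its transcripts. Python 3.11.15, numpy 2.4.6, pandas 2.3.3 and scipy 1.17.1 were used. One gene on the fixed list is not reported here.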

Additional observations from a re-analysis of the deposited data

Results flagged for a closer look

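The 18 values checked, the 12 highest members and the sums of the families and of all members, were looked at for 1 library far from the rest of its group, in both groups. Of 36 such groups 11 had one by Dixon's criterion. The 12 members were picked by means that lean on control replicate 2 and Taar5+ replicate 5, and the sums contain them. The groups are thus not independent, and the count is a description that cannot be set against chance. Control replicate 2 was that library in 10 of the 11 and Taar5+ replicate 5 in 1.

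Sult1d1 was low in both. It had 311 TPM in Taar5+ replicate 5 against 692 to 987 TPM in the other Taar5+ libraries, and 180 TPM in control replicate 2 against 634 to 872 TPM in the other controls. In control replicate 2 other members were high. Ugt2a1 had 2651 TPM (41.8 to 331 TPM in the other controls), Gstm5 1993 TPM (82.2 to 377 TPM), Cyp1a2 2464 TPM (1.07 to 51.8 TPM) and Sult1e1 1208 TPM (3.85 to 50.8 TPM). The sums in that library were 13357 TPM for Cyp (211 to 1256 TPM in the other controls), 2887 TPM for Ugt (54.9 to 368 TPM), 4307 TPM for Gst (273 to 992 TPM), 4301 TPM for Sult1 (741 to 1035 TPM) and 26167 TPM for all members (1456 to 3290 TPM).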

How the results depend on the processing

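No tested member was called in any alternative but array weights, where 4 were called, and leaving out each library gave 0. Partner genes called were 1 with quantile normalization, 1 with array weights and 2 without control replicate 2 and Taar5+ replicate 5, and 0 to 1 when each library was left out. The same-numbered libraries of the groups correlated at -0.0066 to 0.275. For numbers 1, 3 and 4 the control of the same number was the best match, and for 2, 5, 6 and 7 it was not. These values do not settle whether the numbers mark pairs. They were not taken as pairs in the main fit. With the replicate block 0 members were called (lowest limma adjusted p = 0.379), as without it, and 12 genes in all against 21. Genes called over the whole table were 108 with quantile normalization, 1410 with array weights and 337 without the 2 libraries, and 148 without control replicate 2 alone and 66 without Taar5+ replicate 5 alone. The causes were not tested. The median log2 fold change of the tested members ran from -0.58 (without Taar5+ replicate 5) to 0.22 (without Taar5+ replicate 4) when each library was left out.

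Some signs turned, from main values between -1.09 (Cyp3a13) and 0.84 (Cyp2b10), with -0.78 for Cyp2f2 and -0.69 for Fmo6. With array weights the log2 fold change was -0.028 for Cyp2b10, -0.091 for Cyp2g1, -0.095 for Cyp2s1, 0.14 for Cyp3a13, 0.074 for Fmo6, 0.27 for Gstm5, -0.38 for Gstt1, 0.44 for Sult1c1 and 0.21 for Ahr. Without the 2 libraries it was -0.35 for Cyp2s1 and -0.66 for Gstt1. With quantile normalization it was 0.15 for Gsta4, 0.090 for Sult1c1, 0.22 for Ephx1 and 0.13 for Ahr, with the replicate block 0.017 for Gsta4, 0.13 for Ephx1 and 0.011 for Ahr, and with all 18 libraries 0.0024 for Gsta4, 0.017 for Gstm1, 0.079 for Sult1c1 and 0.11 for Ephx1. Leaving out each library gave ranges that crossed 0 for Ahr (-0.46 to 0.0045), Cyp2f2 (-1.52 to 0.31), Cyp2g1 (-0.21 to 1.29), Cyp2j6 (-0.13 to 0.39), Cyp2s1 (-0.22 to 0.56), Ephx1 (-0.49 to 0.25), Gsta4 (-0.67 to 0.29), Gstm1 (-0.81 to 0.30), Gstm5 (-0.46 to 0.14), Gstt1 (-0.44 to 0.45), Por (-0.54 to 0.16), Sult1a1 (-0.084 to 0.27), Sult1c1 (-0.73 to 0.39), Sult1d1 (-0.047 to 0.38) and Ugt2a1 (-0.27 to 0.81). None of these values passed the threshold, and their causes were not tested. With depth unknown, no counting error can be given for any level.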
